A study of Homo sapiens with 4 samples.

Results

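Deubiquitinases, the enzymes that take ubiquitin off proteins, were examined in the FOXK2 ChIP-seq peaks of OVCAR5 ovarian cancer cells. Peaks were taken by the symbol of the gene to which the authors' annotation assigned them, for ubiquitin-specific proteases (USP and a number), ovarian tumor proteases (OTUB or OTUD and a number) and ubiquitin C-terminal hydrolases (UCHL and a number). These were 36 of the 12471 peaks of replicate 1, at 25 genes, and 78 of the 27281 peaks of replicate 2, at 40 genes. Together they named 43 genes, of 64 protein-coding genes with such symbols in the RefSeq annotation (51 USP, 10 OTU and 3 UCH).

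The samples were 2 biological replicates of a single condition. OVCAR5, labelled as a high grade serous ovarian cancer cell line, was grown without treatment, and its chromatin was precipitated with an antibody against FOXK2. Each replicate had its own peak list, with peaks of 210 bp in replicate 1 and 256 bp in replicate 2. No second condition was part of these lists, so what follows describes where FOXK2 was found and how far the replicates shared it, and not a change.

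FOXK2 is a forkhead transcription factor that reads a TGTTTAC-like element in DNA and is known to bring the deubiquitinase BAP1 and corepressor complexes to chromatin. USP, OTU and UCH enzymes are 3 families of cysteine proteases that cut ubiquitin chains, release single ubiquitins or process ubiquitin precursors, and so decide whether a tagged protein is degraded, relocated or kept. Individual members are known for roles at histones, DNA breaks, mitochondria, endosomes and the endoplasmic reticulum (ER).

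The sequences below are the middle of the stretch that both replicates' peaks covered at 7 of the 15 deubiquitinase genes with the highest-ranked peaks, read 5′ to 3′ on the plus strand of hg38 with annotated UTR left out. Capitals mark the exact heptamer TGTTTAC, or GTAAACA where it lies on the minus strand. The first 5 hold it and were chosen to show where in a peak it sits. USP8 and USP25 do not hold it and are shown for contrast, being the best-ranked such genes whose stretch was free of UTR.
OTUD1, promoter, chr10:23438996-23439074: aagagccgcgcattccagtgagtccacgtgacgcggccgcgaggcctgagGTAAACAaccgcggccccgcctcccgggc
USP3, the first intron, chr15:63514727-63514846: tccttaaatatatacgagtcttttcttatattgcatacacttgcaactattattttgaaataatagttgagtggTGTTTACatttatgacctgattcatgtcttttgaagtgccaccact
UCHL1, intergenic, chr4:41287076-41287195: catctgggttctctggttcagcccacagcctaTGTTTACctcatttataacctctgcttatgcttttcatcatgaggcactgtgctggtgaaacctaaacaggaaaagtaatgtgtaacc
USP12, downstream of the start, chr13:27169691-27169810: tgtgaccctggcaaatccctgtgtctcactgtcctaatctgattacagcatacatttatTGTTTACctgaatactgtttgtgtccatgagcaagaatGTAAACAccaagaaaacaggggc
USP9X, upstream intergenic, chrX:41002296-41002415: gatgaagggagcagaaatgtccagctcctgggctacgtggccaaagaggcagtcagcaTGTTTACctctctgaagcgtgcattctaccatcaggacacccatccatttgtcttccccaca
USP8, promoter, chr15:50424063-50424182: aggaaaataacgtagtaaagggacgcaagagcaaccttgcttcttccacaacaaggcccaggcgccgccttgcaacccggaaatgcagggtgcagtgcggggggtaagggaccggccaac
USP25, upstream intergenic, chr21:15618142-15618261: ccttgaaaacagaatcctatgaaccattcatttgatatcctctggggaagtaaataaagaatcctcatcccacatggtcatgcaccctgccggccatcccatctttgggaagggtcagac

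FOXK2 peaks shared by both replicates lay at 22 of the 64 deubiquitinase genes (34.4%, 95% Wilson interval 23.9% to 46.6%), where a shared peak means that peaks assigned to the same gene overlapped by at least 1 bp. The same was true of 25.5% of 20056 protein-coding genes, which lies inside that interval. Shared peaks of the promoter class were found at 11 genes (17.2%, interval 9.88% to 28.2%), against 9.02% of all protein-coding genes, just below that interval. Counting replicate 1 alone, 25 genes had a peak (39.1%, against 31.3% of all), and in replicate 2 alone 40 genes did (62.5%, against 51.7% of all). Deubiquitinase genes were longer than most: their median length was 60935 bp, against 24092 bp over all protein-coding genes, and the part of gene length in these counts was not tested. Within the deubiquitinases, the median length was 89032 bp for genes with a shared peak and 35122 bp for genes with no peak, and over all protein-coding genes it was 43351 bp and 14607 bp. Intervals cover counting error only, and genes are not replicates of a condition.

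By family, a shared peak was found at 15 of 51 USP genes (29.4%), at 5 of 10 OTU genes (interval 23.7% to 76.3%) and at 2 of 3 UCH genes. The intervals of the 3 families overlapped one another. Promoter peaks were shared at 8 USP genes (15.7%), 2 OTU genes (20.0%) and 1 of the 3 UCH genes. Over all protein-coding genes, as above, the shares were 25.5% for any shared peak and 9.02% for one at a promoter.

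The 22 genes held 29 pairs of overlapping peaks: 11 at promoters, 9 in introns or exons, 8 between genes and 1 in the class for transcript ends. Over the whole list, 2144 of the 9343 overlapped replicate 1 peaks were of the promoter class. Of the 29 deubiquitinase pairs, 22 lay in the assigned gene or within 1000 bp upstream of it. The common stretch measured 80 to 210 bp with a median of 210 bp, and the median distance between the centres of a pair was 16 bp, so the replicates placed most of these sites at nearly the same position. Peak scores are scaled to each library and the lists differ in length, so scores are given as deposited and compared only as percentiles within their own list (100 for the highest). The percentile was higher in replicate 2 in 25 of 29 pairs (86.2%), and in 89.4% of all 9343 pairs, replicate 2 having the longer list. Both percentiles were 90 or more in 6 pairs (20.7%, against 13.2% of all pairs), at 5 genes.

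**Figure D1:**
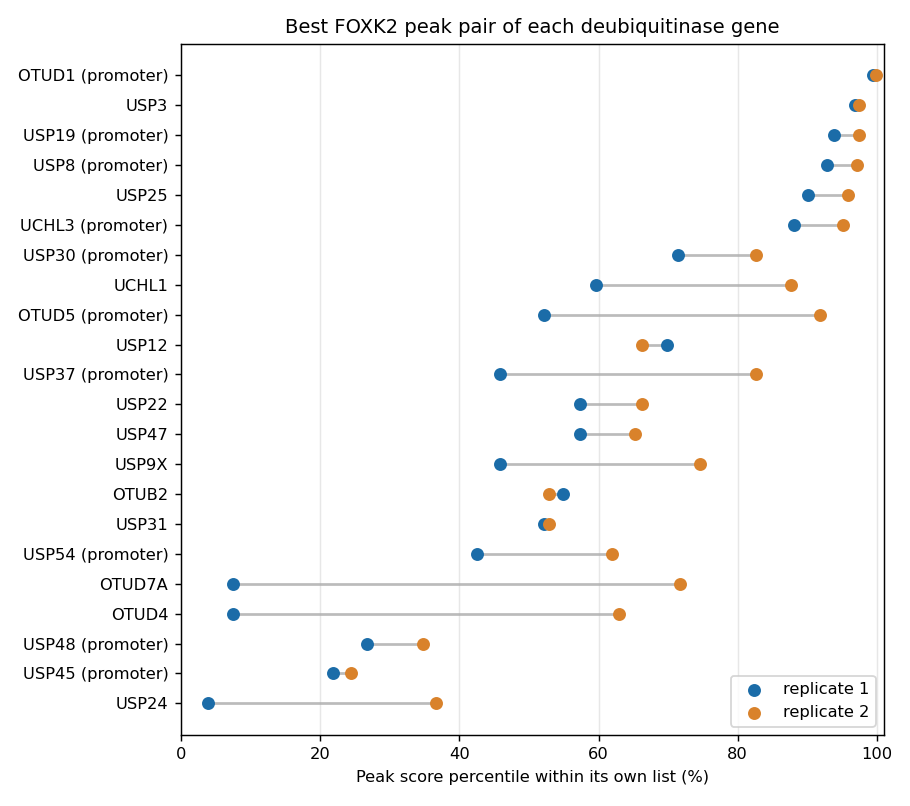
Score percentile within its own list (x axis, %) of the best overlapping peak pair of each of the 22 deubiquitinase genes that have one (rows); blue points are replicate 1, orange points replicate 2, and the gray line joins them. OTUD1 is highest in both lists at 99.5 and 99.9, a group from USP3 to UCHL3 lies above 88 in both, and OTUD7A and OTUD4 show the widest gaps (7.5 against 71.7 and 7.5 against 63.0).

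The highest-ranked deubiquitinase peak was at the promoter of OTUD1, an OTU enzyme known for stabilizing p53 and restraining innate immune signaling. It scored 33.8 in replicate 1 (rank 66, percentile 99.5) and 80.8 in replicate 2 (rank 32, percentile 99.9), at chr10:23438951-23439161 in replicate 1. In the authors' annotation its centres lay at -213 and -234 bp from the transcription start site (TSS), a minus sign meaning upstream. The RefSeq annotation used here starts OTUD1 at chr10:23439075, within the peak, and the UTR left out above follows that start. Among the USP, OTU and UCH genes, the next best rank was 381 in replicate 1, at USP3, and 681 in replicate 2, at USP19. The stretch printed above shows a single heptamer on the minus strand within GC-rich DNA (76.8% G or C over the common stretch), and it was the only one of the 11 shared promoter peaks to hold the heptamer.

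Genes that act on histones and DNA breaks were led by USP3, which removes ubiquitin from histones and is known in the DNA damage response. Its best peak, in the first intron 10276 and 10293 bp downstream of the TSS, scored 17.9 (rank 381) in replicate 1 and 27.2 (rank 701) in replicate 2. USP3 held a further 2 shared peaks upstream. The one about 42 kb upstream (distances of -42200 and -42185 bp) scored 12.6 and 24.8, at percentiles 92.0 and 96.8, and the one at -30316 and -30290 bp scored 12.3 and 14.7, at percentiles 91.4 and 87.3. Both lay between genes, with CA12 the next protein-coding gene at 80465 and 92350 bp, so their assignment to USP3 rests on distance alone. The authors' detailed annotation placed the one at -42200 bp in an L1ME3D LINE repeat. The intronic peak held the heptamer printed above and also the AP-1 element TGANTCA, the peak at -42200 bp held only the AP-1 element of these, and the peak at -30316 bp held only the heptamer.

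USP22, the ubiquitin protease of the SAGA coactivator, had a mid-ranked shared peak in its first intron 2653 and 2649 bp from the TSS, with scores of 6.41 and 9.22 (percentiles 57.3 and 66.2). At its promoter, a peak was listed in replicate 2 only, with a score of 7.44 (percentile 51.4). USP12, which works with WD-repeat cofactors and has been linked to histones and receptor turnover, scored 7.55 and 9.22 (percentiles 69.8 and 66.2) at 2147 and 2119 bp, and it was one of the 4 pairs whose percentile was not higher in replicate 2. The printed USP12 stretch shows 2 heptamers facing opposite ways. UCHL3, which processes ubiquitin and NEDD8 precursors and also acts in DNA repair, had a shared promoter peak with scores of 10.9 (rank 1439) and 21.3 (rank 1309), at percentiles 88.1 and 95.2. The peak centres lay 51 bp apart, although the listed distances to the nearest UCHL3 start were 117 and -102 bp, a wider gap than the centres themselves. The TSS of COMMD6 lay 172 bp away, and the lists cannot tell which gene the peak belongs to. OTUB2, known in DNA repair and in the stability of Hippo pathway coactivators, scored 6.23 and 7.58 in its first intron (percentiles 54.9 and 52.9).

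Promoter peaks were shared at 3 enzymes that work at the ER, endosomes or mitochondria. USP19, an enzyme anchored in the ER membrane and known in protein quality control, scored 14.0 (rank 742) and 27.5 (rank 681) at 51 and 40 bp from its TSS, with percentiles of 93.9 and 97.5. The LAMB2 TSS lay 709 bp away. USP8, which trims ubiquitin from receptors at endosomes and from parkin at mitochondria, scored 13.2 (rank 879) and 26.6 (rank 750) at -254 and -268 bp. No other protein-coding start was closer than 68715 bp, and the printed USP8 stretch holds no exact heptamer. USP30, which sits in the outer mitochondrial membrane and opposes mitophagy, scored 7.73 and 12.8 at -68 and -67 bp (percentiles 71.4 and 82.6). At these 3 promoters the replicates placed the peak centres within 14 bp of each other.

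Genes of immune signaling included USP25, which acts in interferon and ER degradation pathways, and OTUD5, an OTU enzyme known for limiting interferon production. USP25 had the most peaks of any deubiquitinase, 5 in replicate 1 and 9 in replicate 2, with 4 shared. The best scored 11.7 (rank 1205) and 22.8 (rank 1118), at -111732 and -111740 bp from the TSS. Another lay at -291736 bp with scores of 8.49 and 10.9. These 2 sites sit in a gene-poor interval whose next protein-coding gene was NRIP1, 552266 and 372262 bp away. The other 2 lay within the gene, at 58797 bp (scores of 4.53 and 8.18, with 2 heptamers in the common stretch) and at 95868 bp (4.34 and 5.80), and were weak in replicate 1, at percentiles 21.9 and 17.0. No shared peak of USP25 was of the promoter class. OTUD5 had a shared promoter peak at -321 and -300 bp that scored 6.04 in replicate 1 (percentile 52.2) and 17.7 in replicate 2 (percentile 91.8), one of the wider gaps between replicates.

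Of the other genes described in full, USP37, which stabilizes cyclins, scored 5.66 and 12.8 at its promoter, 4 and -22 bp from the TSS, with percentiles of 45.8 and 82.6, and the CNOT9 start lay 222 bp from the pair. USP47, which protects beta-catenin and a DNA repair polymerase, scored 6.41 and 9.07 in its first intron, 15428 and 15455 bp from the TSS. USP9X, a large X-linked enzyme that stabilizes SMAD4 and MCL1, had 2 shared sites. One lay at -83279 and -83295 bp with scores of 5.66 and 10.7 (percentiles 45.8 and 74.6) and carries the heptamer printed above. The other lay at its promoter, at -814 and -801 bp, with scores of 4.53 and 8.18 (percentiles 21.9 and 58.3) and no heptamer. UCHL1, an abundant neuronal hydrolase that also appears in many tumors, had 2 shared peaks beyond its 3′ end. They lay at 30255 bp from the TSS (6.60 and 14.9, percentiles 59.7 and 87.6) and at 28832 bp (4.90 and 10.6, percentiles 30.8 and 73.9), and each held a heptamer. No promoter peak assigned to UCHL1 was listed in either replicate.

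Promoter pairs were also shared at USP54, USP48 and USP45. USP54, long classed as lacking activity, had percentiles of 42.6 and 61.9. USP48, which acts on histones at repair sites, had 26.7 and 34.8, and USP45, which acts on a DNA repair nuclease, had 21.9 and 24.5. By the best pair of each gene, the lowest of those outside promoters were USP31, OTUD7A, OTUD4 and USP24. USP31 had its pair in the first exon with a common stretch of 80 bp, 90.1% G or C, whose centres lay 153 bp apart, and OTUD7A and OTUD4 were both at percentile 7.5 in replicate 1. USP24 had the lowest replicate 1 value of any pair, at percentile 3.9.

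**Figure D2:**
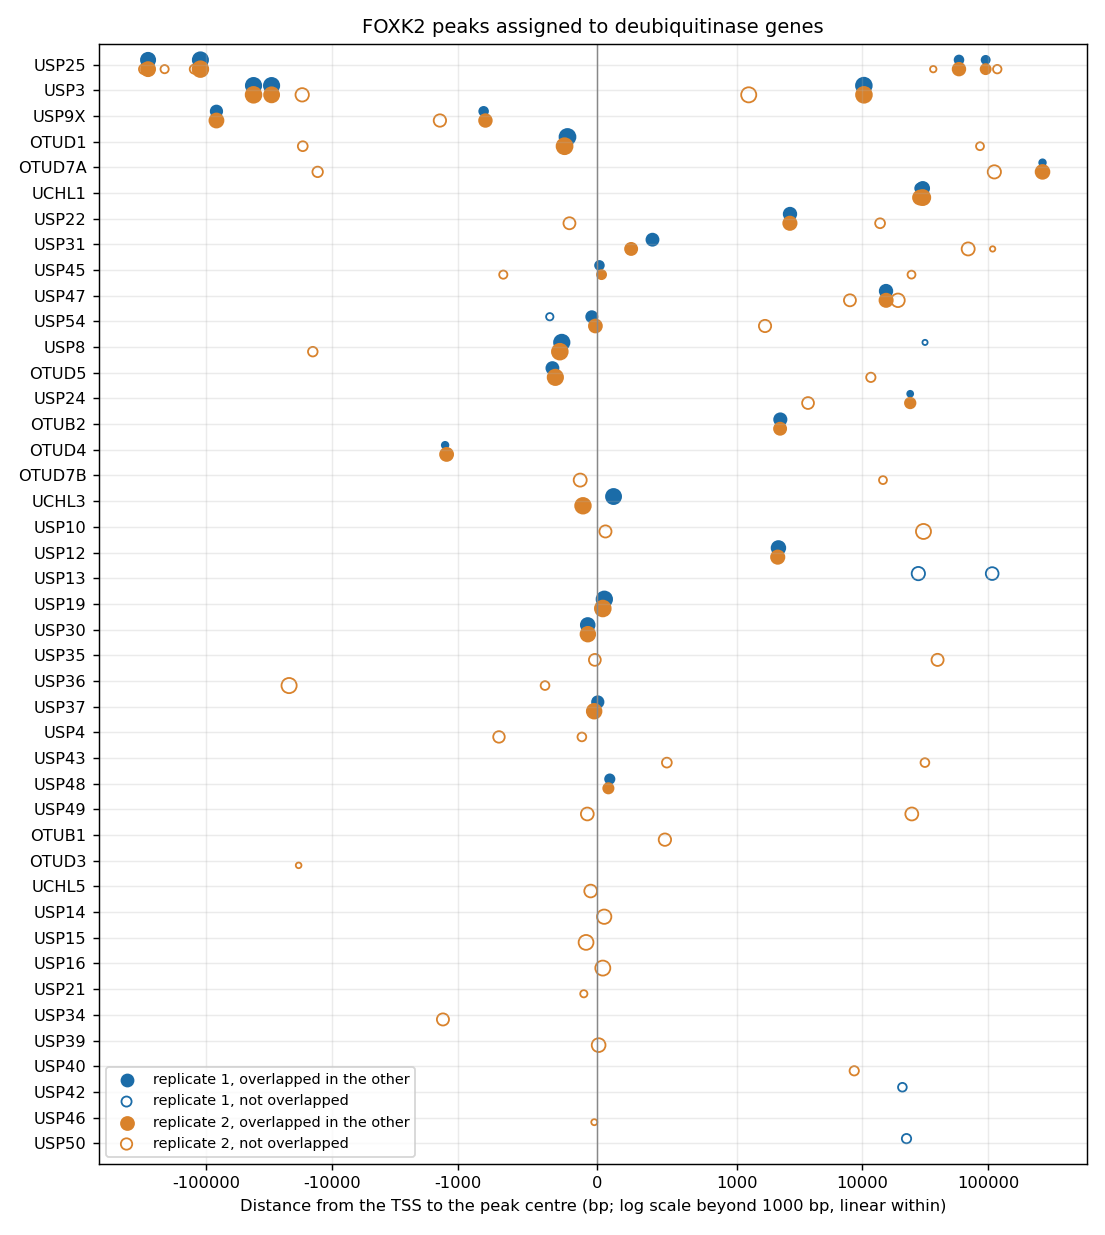
Distance from the TSS to the centre of each FOXK2 peak assigned to a deubiquitinase gene (x axis, bp, linear within 1000 bp and logarithmic beyond), for the 43 genes with a peak (rows, by number of peaks); blue is replicate 1, orange replicate 2, filled points overlapped a peak of the other replicate, open points did not, and larger points have a higher score percentile. Pairs of filled points line up at 22 genes, most open points are of replicate 2, and USP25 spreads from -314242 to 118555 bp.

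Of the 22 genes with a shared peak, 18 had 1 pair, and only USP25 (4), USP3 (3), UCHL1 (2) and USP9X (2) had more. At each of these 4 genes at least 1 pair lay outside promoters. For scale, the whole lists held 9343 pairs, and 5111 protein-coding genes had a pair. Of all replicate 1 peaks, 74.4% were assigned to protein-coding genes. These figures do not give the number of pairs per protein-coding gene, so no comparison with other genes is drawn.

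Peaks found in a single replicate were weaker. Every deubiquitinase gene with peaks in both replicates had at least 1 overlapping pair. Over all protein-coding genes, 6277 had a peak in replicate 1, 541 of them in replicate 1 only, and 5111 had an overlapping pair. Most protein-coding genes with peaks in both replicates thus had a pair too. At 3 genes, USP13, USP42 and USP50, peaks were in replicate 1 only (4.69%, against 2.70% of all protein-coding genes). At 18 genes they were in replicate 2 only (28.1%, interval 18.6% to 40.1%, against 23.1%), and 13 of these had a promoter peak (20.3% of the 64 genes, interval 12.3% to 31.7%, against 8.91%). The background lay below that last interval, which is a description of genes chosen by name. Of 56 peaks without a partner, 7 were in replicate 1 and 49 in replicate 2, and none reached percentile 90. The highest was assigned to USP36, a nucleolar enzyme, with a score of 15.9 at percentile 89.4, but it lay in the third intron of TIMP2, at -21992 bp from the USP36 TSS. The next was a USP3 peak 1245 bp from the TSS in the first intron (15.3, percentile 88.5), a further site at a gene with 3 shared ones. USP16, which acts on histones in mitosis, had one at its promoter, 40 bp from the start (14.7, percentile 87.3), and USP10, a p53 deubiquitinase, an intronic peak with the same score and percentile at 30657 bp. USP15, active in TGF-beta signaling, had a promoter-class peak at a listed distance of -80 bp (13.8, percentile 85.3), with a TAFA2 start within 1000 bp. Its class was given by the transcript NR_106740. The RefSeq start of USP15 used here, chr12:62260404, lay just outside the peak. These 5 peaks were listed in replicate 2 only. The median percentile of deubiquitinase peaks was 54.9 for those with a partner and 21.9 for those without in replicate 1, and 73.9 and 50 in replicate 2, against 59.7 and 26.7, and 77.9 and 34.8, over the whole lists.

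To 21 genes (32.8%) no peak was assigned in either replicate, against 45.6% of all protein-coding genes. They were OTUD6A, OTUD6B, USP1, USP2, USP5, USP6, USP7, USP9Y, USP11, USP18, USP20, USP26, USP27X, USP28, USP29, USP32, USP33, USP38, USP44, USP51 and USP53. These include the major p53 and MDM2 deubiquitinase USP7 and the Fanconi pathway enzyme USP1. Why no peak was assigned to these genes was not tested. Throughout, no peak means none assigned to the gene, and peaks in its body assigned to other genes were not counted.

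Deubiquitinases were also set out by what they act on, in lists that share some members. In the DNA damage group 5 of 13 genes had a shared peak (USP3, USP48, OTUB2, UCHL3 and OTUD4), and 2 of them at a promoter. USP45 and USP47, with repair substrates among their known ones, were not on that list. Chromatin and histone enzymes had 3 of 13 (USP3, USP12 and USP22), none at a promoter, on a list that leaves out USP48 and its shared promoter peak. In the immune and NF-kB group it was 5 of 9 (USP25, USP31, OTUD1, OTUD5 and OTUD7A), and in the p53 and MDM2 group 2 of 9 (OTUD1 and OTUD5), both at promoters. Of the 4 mitochondrial enzymes, USP8 and USP30 had shared promoter peaks, and USP15 and USP35 had peaks in replicate 2 only. Both proteasome-bound enzymes, USP14 and UCHL5, had a promoter peak in replicate 2 only. TGF-beta, Wnt and Hippo enzymes had 3 of 8 (USP9X, USP47 and OTUB2), endosomal enzymes 2 of 7 (USP8 and USP12), ER enzymes 2 of 3 (USP19 and USP25) and the inactive or noncatalytic group 1 of 3 (USP54). With groups this small, no group is called different from the 25.5% of all protein-coding genes.

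**Figure D3:**
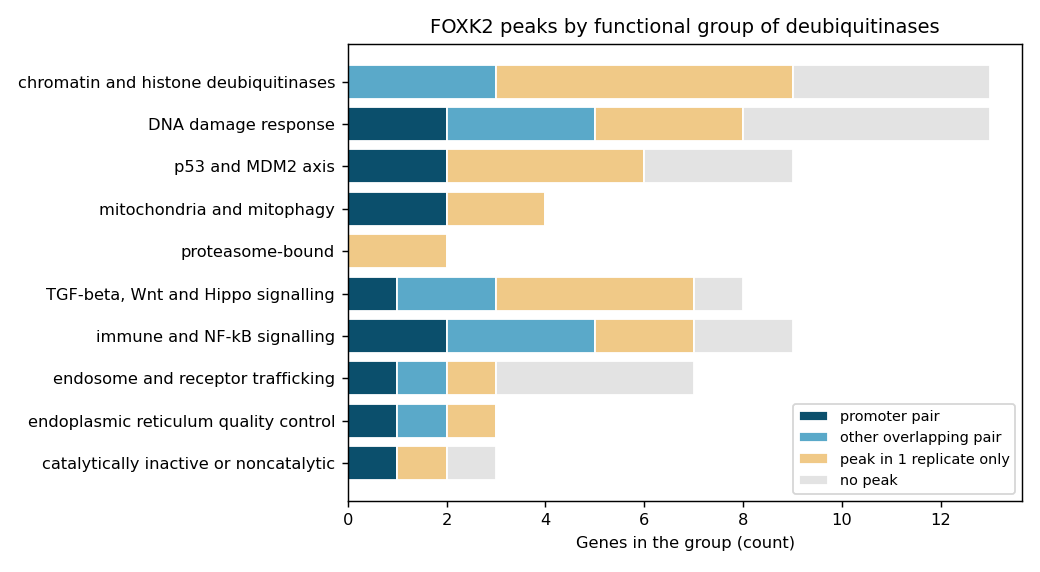
Number of genes (x axis) in each functional group of deubiquitinases (rows) with a promoter peak pair in both replicates (dark blue), another overlapping pair only (light blue), a peak in 1 replicate only (yellow) or no peak (gray); some genes are in more than 1 group. Shared peaks are in 5 of 13 DNA damage genes, 3 of 13 chromatin genes and 5 of 9 immune genes.

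Close paralogues were set side by side. Of 17 groups, none had a shared peak at every member, 10 had one at some members and 7 at none, with 34.4% of all 64 genes having one. The 10 include USP9X with USP9Y, which lies on chromosome Y, and whether these ovarian cells carry that chromosome was not tested. Among the 7, the group of USP18 was scored on that gene alone, and neither USP20 nor USP33, nor OTUD6A and OTUD6B, had any peak. USP12 had a shared peak and USP46 a peak in replicate 2 only, USP25 had 4 shared peaks and USP28 no peak, and USP22 had a shared peak while USP27X and USP51 had none. OTUB2 and OTUD7A had shared peaks, whereas OTUB1 and OTUD7B had peaks in replicate 2 only. Reads that map equally well to near-identical copies could be lost or misplaced, and how the authors treated them beyond standard settings is not given in the sources used here.

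Overlap between replicates was close to that of the lists as a whole. Of 36 replicate 1 peaks, 29 overlapped a replicate 2 peak (80.6%, interval 65.0% to 90.3%), against 74.9% of all. Of 78 replicate 2 peaks, 29 had a partner (37.2%, interval 27.3% to 48.3%), against 34.2% of all. The same 29 pairs stand behind both shares, the second being taken over the longer list.

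Promoter peaks made up 12 of 36 deubiquitinase peaks in replicate 1 (33.3%, interval 20.2% to 49.7%), against 21.7% of the whole list. In replicate 2 they made up 27 of 78 (34.6%, interval 25.0% to 45.7%), against 18.0%. The background lay inside the interval in replicate 1 and below it in replicate 2, which is a description, since several peaks share a gene and the genes were chosen by name. Of the promoter peaks, 11 of 12 in replicate 1 (91.7%, against 79.1% of all promoter peaks) and 11 of 27 in replicate 2 (40.7%, against 43.9%) were shared. The median distance to the TSS, without sign, was 12852 bp in replicate 1 and 5827 bp in replicate 2, against 16139 and 20161 bp over the whole lists. Exons held 3 deubiquitinase peaks in replicate 1 (8.33%) and 4 in replicate 2 (5.13%), against 1.02% and 1.19%.

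The heptamer's share at deubiquitinase peaks was close to that of the whole lists. Counting both strands and 100 bp to each side of the centre, TGTTTAC was in 11 of 36 replicate 1 peaks (30.6%, interval 18.0% to 46.9%), against 30.5% of all, and in 22 of 78 replicate 2 peaks (28.2%, interval 19.4% to 39.0%), against 28.2% of all. Control windows of equal length, centred 2000 bp to the left and right of each deubiquitinase peak, held it in 2 of 72 cases (2.78%) for replicate 1 and 6 of 156 (3.85%) for replicate 2. It was found mostly outside promoters. There, 10 of 24 peaks in replicate 1 (41.7%) and 21 of 51 in replicate 2 (41.2%) held it, against 35.0% and 32.0% over the whole lists. At promoters it was in 1 of 12 and 1 of 27, against 14.4% and 10.9%, and that single promoter in both replicates was OTUD1. Within 10000 bp of the TSS it was in 2 of 17 (11.8%, interval 3.29% to 34.3%) and 4 of 41 (9.76%, interval 3.86% to 22.5%), against 23.1% and 20.1% of all peaks so placed, both inside the intervals. The common stretches showed the same split, with 8 of 18 pairs outside promoters and 1 of 11 promoter pairs. The 9 pairs lay at 7 genes: OTUD1, USP3 (2 pairs), UCHL1 (2 pairs), USP12, USP9X, USP25 and OTUD7A. In the authors' detailed annotation, the OTUD7A pair lay in an L1PA7 LINE repeat. The UCHL1 pair at 28832 bp lay in a MER20B DNA transposon, and the others of the 9 carried no repeat label. A looser forkhead core was T, then A or G, then TTT, then A or G, then C or T. It was in 17 of the 29 common stretches (58.6%), against 59.3% over all 9343 pairs. Those of the best USP25 pair and of the USP22 pair were among the 17. The exact heptamer was in 31.0% of the 29, against 34.0%.

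**Figure D4:**
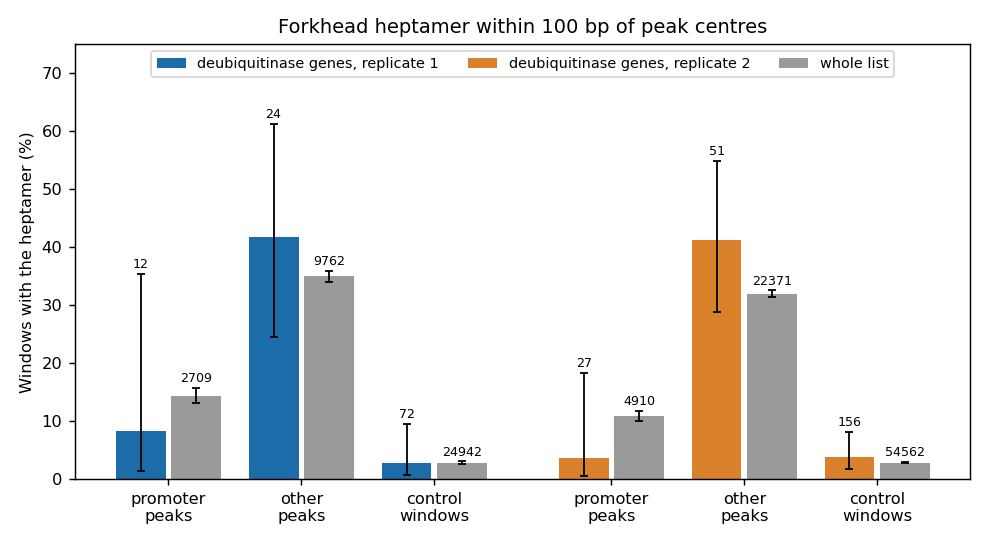
Share of windows within 100 bp of a peak centre that hold the exact heptamer on either strand (y axis, %), for promoter peaks, other peaks and control windows 2000 bp away; blue and orange bars are deubiquitinase genes in replicates 1 and 2, gray bars the whole list, error bars are 95% Wilson intervals and the number of windows stands above each bar. Outside promoters the deubiquitinase bars stand at 41.7% and 41.2%, and at promoters at 8.33% and 3.70%.

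Other elements were searched in the same windows on both strands. The AP-1 element TGANTCA was in 5 of 36 replicate 1 peaks (13.9%, against 20.8% of all) and 15 of 78 replicate 2 peaks (19.2%, against 21.0%). The ETS element CCGGAAG was in 2 of 36 (5.56%, against 5.69%) and 5 of 78 (6.41%, against 4.90%). A CRE element, TGACGTCA, was in 1 of 36 (2.78%, against 0.810%) and 1 of 78 (1.28%, against 0.803%). The CCAAT box was in 13 of 36 (36.1%, interval 22.5% to 52.4%, against 25.0%) and 21 of 78 (26.9%, against 24.4%). Control windows 2000 bp from all peaks held CCAAT in 25.2% and 25.5% of cases, close to its share at all peaks. For deubiquitinase peaks the control windows held it in 18.1% and 18.6%. Over all peaks, controls held AP-1 in 6.02% in both replicates, ETS in 0.553% and 0.621%, and CRE in 0.100% and 0.103%. Each was below its share at all peaks. None of these 5 motifs contains another, and a match describes letters in a window and not a bound factor.

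Promoter sequences of RefSeq (GRCh38.p14, 250 bases before to 50 after the start) were matched for 50 of the 64 genes. TGTTTAC on either strand was in 1 of these 50 (2.00%), again OTUD1, and in 2.61% of the 15843 protein-coding promoters matched. Among the 8 promoters matched at genes with a shared promoter peak, OTUD1 was likewise the only one. CCGGAAG was in 13 of 50 (26.0%), among them USP19 and OTUD5, against 14.2% of all promoters. In the stretches common to both replicates' promoter peaks, it was present at USP19 and USP30 but not at OTUD5. CCAAT was in 14 of 50 (28.0%, against 36.4%), TGANTCA in 1 of 50 (2.00%, against 5.75%) and TGACGTCA in none, against 2.59%.

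The strength of deubiquitinase peaks was spread over the whole range of the lists. Their median percentile was 52.2 in replicate 1 and 55.8 in replicate 2, against 49.1 and 50 over all peaks. At percentile 90 or more there were 7 of 36 (19.4%) and 8 of 78 (10.3%), against 10.1% in both lists. The median focus ratio, the fraction of tags on the expected side of the centre, was 0.770 and 0.754, against 0.758 and 0.755. Scores were whole multiples of 0.189 in replicate 1 and 0.149 in replicate 2 in all 37 and 47 distinct low values tested, within 0.0051. Read as 1 tag per step, the OTUD1 peak held 179 and 543 tags, the median deubiquitinase peak 32 and 53 tags, and the weakest 18 and 24 tags, so the lower-ranked peaks named above rest on few reads.

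Genes of deubiquitinase families with other names were set beside these for context. The list includes members not known as deubiquitinases, such as USPL1 and PSMD7, which both had a shared promoter peak. Of 32 genes, among them the BAP1, ataxin and JAMM families, 12 had a shared peak (37.5%, against 25.5% of all protein-coding genes), 5 had a shared promoter peak (15.6%, against 9.02%) and 5 had no peak (15.6%, against 45.6%). ATXN3, which edits ubiquitin chains on misfolded proteins, had a shared promoter peak with scores of 19.8 (rank 289) and 35.5 (rank 355). Among the genes of both sets with a shared peak, only OTUD1 ranked above it in both lists. Unpaired peaks of the 32 genes were not compared. CYLD, a brake on NF-kB signaling, had one at percentiles 79.3 and 95.8. BAP1 itself had a single peak, in replicate 2 only.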

How the data were processed

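Peak lists of FOXK2 ChIP-seq from 2 biological replicates of OVCAR5 were the data. The authors mapped single-end reads to hg38 with Bowtie2 2.2.6 and called and annotated peaks with HOMER 4.10. In each deposited list, a row gives the position of a peak, the distance to the nearest TSS in bp, a peak score scaled to the library, and a focus ratio given as a fraction by the authors' software. Lists were used as deposited. Input libraries were not analysed here. The authors tested peaks for enrichment with DESeq2, and their supplement gives a comparison with input for 1 peak. Whether the deposited lists were called against input, or filtered on that comparison, is not given in the sources used here.

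Members, lists and motifs were chosen with earlier results of these data known. Genes were named by rule: in full, the 15 with the best mean percentile of a pair; by value, other genes with a promoter pair; by name, genes with no peak and those in a single replicate at percentile 90 or more; the 5 with the most pairs; and sequences for up to 8 of the 15 with TGTTTAC and 2 without. Single-replicate peaks below percentile 90, the other pairs and genes with other names were chosen after their values were seen. Symbols, lengths and promoters came from RefSeq GRCh38.p14, and neighboring starts from GENCODE 44. The overlap and motif searches were checked on simulated data with known answers. Alternatives tried are given in the closing section. Software was samtools 1.23.1, matplotlib 3.10.9, pysam 0.24.0, pandas 2.3.3, scipy 1.17.1, numpy 2.4.6 and Python 3.11.15.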

Additional observations from a re-analysis of the deposited data

How the results depend on the processing

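Of 44 values under alternative settings, 33 stayed near the reported value (a count within 1.5 times, a share inside its interval) and 11 moved. With the higher-scoring part of each list, 14 genes had a shared peak and 6 a shared promoter peak, in place of 22 and 11, which is 21.9% and 9.38% of the 64 genes, against 16.4% and 6.09% of all protein-coding genes. Leaving out 1 replicate, and so counting genes with any peak in the other, gave 25 to 40 genes (31.3% and 51.7% of all genes) and 11 to 25 genes with a promoter peak (11.9% and 21.2% of all genes). With lists of equal length, 63.9% of replicate 1 and 56.1% of replicate 2 deubiquitinase peaks overlapped (60% of all peaks in both). Within 10000 bp of the TSS, 94.1% of replicate 1 peaks overlapped (77.4% of all), and the heptamer was in 11.8% and 9.76% of peaks (23.1% and 20.1% of all). The looser forkhead core was in 55.6% and 53.8% (57.9% and 56.9% of all peaks, and 33.3% and 32.7% of the control windows). Fewer genes or peaks enter under several of these settings. There were 2 libraries of 1 condition, so no difference between conditions was measured. Assignment to the nearest TSS is not evidence that a gene is regulated. With 36 and 78 peaks the intervals of shares are wide.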
